A study of Ovis aries with 18 samples.

Results

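Gene expression in sheep pars tuberalis (PT) was compared between animals on long photoperiod (LP) for 22 weeks and animals on LP for 4 weeks. This asks what changes in the tissue as the time spent on a constant day length grows. The comparison used 7 of the 18 RNA sequencing libraries of the series, 4 from the LP22 group and 3 from the LP4 group. They were chosen by their labels: every LP22 library, and for LP4 animals 1 and 4 and the repeat library of animal 2. The first library of LP4 animal 2 and the only library of LP4 animal 3 were left out. All animals were castrated male Scottish Blackface sheep. In the labels, only the time on LP and the repeat mark of the LP4 animal 2 library separate the LP22 and LP4 groups. Age and date at sampling may also differ and cannot be told apart from time on LP. A pair of groups on short photoperiod (SP), for 4 weeks (SP4, 4 animals) or 16 weeks (SP16, 4 animals), served for reference. Each group of the series was labelled with 4 samples, so the 18 libraries stood for 16 animals, of which 15 entered the fit.

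The PT is the part of the pituitary gland that wraps the stalk below the hypothalamus. Its thyrotroph cells carry melatonin receptors and read the length of the night. On long days they release thyroid-stimulating hormone, which acts on cells of the neighbouring hypothalamus and changes thyroid hormone there, and through it the seasonal reproductive axis. Sheep that stay on long days for many months do not keep the long-day state: their hormone output drifts back toward that of short days, which is called refractoriness.

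The files listed genes by Ensembl sheep identifiers (IDs) without names, and 0 of the 25197 IDs matched the reference gene table. The labelled tissue was therefore not checked here against thyrotroph or other pituitary markers, and levels of named pathway genes are not given. In whole tissue, fewer cells of a type and less RNA per cell cannot be told apart.

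The 7 libraries held between 1746861 (LP22 animal 2) and 3793151 (LP4 animal 2) reads counted in genes. The LP4 animal 2 library stood apart from the other 6. Reads in genes made up 21.3% of its aligned reads, against 15.3% to 17.8% in the others, and its 10 most counted genes took 59.2% of its gene counts, against 37.6% to 42.5%. Its scaling factor by TMM, which corrects for a few dominant genes, was 0.633, against 1.01 to 1.08. The 6 correlations of its log2 levels with those of the other libraries across genes were 0.921 to 0.934, against 0.934 to 0.957 for the 8 pairs of LP4 animal 1 or 4 with an LP22 animal, 0.941 to 0.958 for the 6 pairs within LP22 and 0.965 for LP4 animals 1 and 4. The libraries left out had larger shares of reads in genes. These reached 52.6% of aligned reads in LP4 animal 3 and 31% in the left-out library of LP4 animal 2. Their 10 most counted genes took 65.2% of gene counts in LP4 animal 3 and 52.6% in the left-out library of LP4 animal 2. Results that rest on LP4 animal 2 are given below with and without it.

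Levels are given as CPM, the reads of a gene in every 1000000 gene reads after TMM scaling. Of the 25197 genes, 13446 had enough reads to be tested. Between LP22 and LP4, 4 genes differed at a false discovery rate (FDR, the Benjamini-Hochberg adjusted p of the edgeR quasi-likelihood test) under 0.05, which is 0.0297% of the genes tested. Of these, 1 was higher in LP22 (0.00744%) and 3 were lower (0.0223%). At an unadjusted p under 0.05 there were 1171 genes (8.71%), 576 higher (4.28%) and 595 lower (4.43%). When only the 7 LP libraries were fitted, 0 genes passed by the same edgeR test, with 883 at an unadjusted p under 0.05, and the 4 genes then had FDR of 0.143 to 0.204. The DESeq2 Wald test on all 15 animals called 14 genes, among them the same 4. Fold changes centred near 0: the median log2 fold change was −0.00118, the quartiles were −0.17 and 0.16, and 97.8% of genes stayed within 2-fold.

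**Figure D1:**
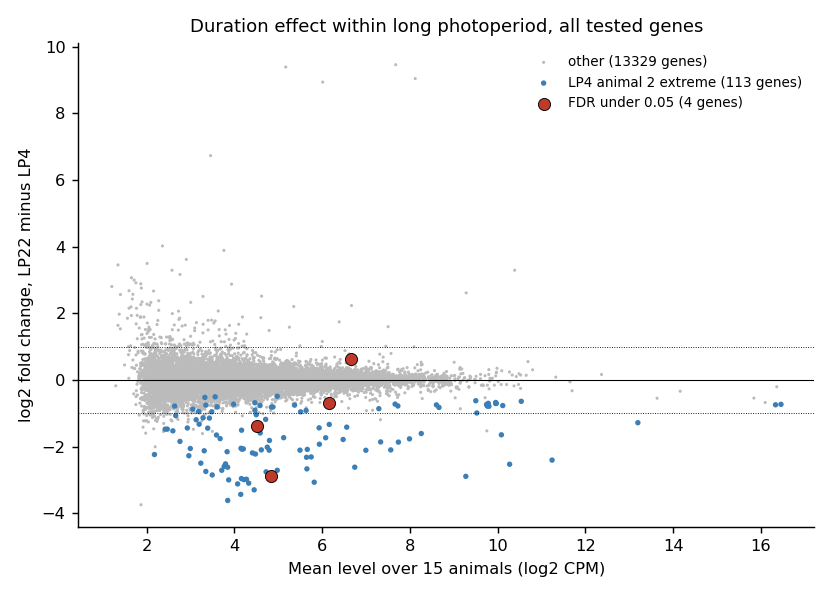
Log2 fold change LP22 minus LP4 (vertical axis) of each of the 13446 tested genes against its mean level in log2 CPM (horizontal axis), over 15 animals. Large points are the 4 genes at FDR under 0.05, 1 above and 3 below 0, smaller coloured points are 113 genes over 2-fold highest in LP4 animal 2, and dotted lines mark 2-fold. Many genes with larger fold changes did not pass.

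ENSOARG00000000618 fell the most of the genes that passed. Its level was 99.6, 52.8 and 160 CPM in LP4 animals 1, 2 and 4, and 21.1, 5.7, 13.3 and 16.3 CPM in LP22 animals 1 to 4. Every LP22 animal lay below every LP4 animal. The mean was 104 ± 53.9 CPM in LP4 (SD, n = 3) and 14.1 ± 6.45 CPM in LP22 (SD, n = 4), and the fitted level in LP22 was 7.28-fold lower (log2 fold change −2.86, SE 0.38, edgeR FDR = 0.00689). With a robust dispersion fit, in which genes of unusual spread are drawn less toward the common trend, it did not pass (edgeR FDR = 0.0743). The raw counts behind these levels were 244, 126 and 382 in LP4 and 44, 10, 39 and 37 in LP22.

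This gene also separated LP4 from the short-day groups. It stood at 2.14, 3.71, 3.7 and 1.81 CPM in the SP4 animals and at 7.7, 14.6, 3.12 and 13.8 CPM in the SP16 animals. LP4 was above SP4 by a log2 fold change of 5.25 (edgeR FDR = 2.83e-06), whereas LP22 against SP16 gave 0.61 and did not pass (edgeR FDR = 0.575). These comparisons share the LP4 and the LP22 animals with the comparison of LP22 against LP4. After 22 weeks the level thus overlapped that of SP16 while remaining above the SP4 range in every animal.

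ENSOARG00000023160 fell by a smaller amount and reached a level below both short-day groups. It measured 32.3, 30.6 and 24.8 CPM in LP4 and 9.1, 9.69, 14 and 11.4 CPM in LP22, with no overlap (mean 29.2 ± 3.93, SD, n = 3, against 11.1 ± 2.19, SD, n = 4). The fitted change was 2.59-fold lower in LP22 (log2 fold change −1.37, SE 0.21, edgeR FDR = 0.0157). The SP4 animals stood at 16, 24.3, 24.5 and 18.5 CPM and the SP16 animals at 33, 25.7, 34.6 and 23 CPM, so all 4 LP22 animals were the lowest of the 15. LP22 was lower than SP16 (log2 fold change −1.38, edgeR FDR = 0.000414), and LP4 against SP4 gave 0.51 and did not pass (edgeR FDR = 0.21). The first of these shares the LP22 animals whose low level picked the gene, so its outcome is partly fixed.

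The third gene lower in LP22 had 98.8, 116 and 95.3 CPM in LP4 and 61.8, 70.7, 60.4 and 65.5 CPM in LP22. The groups did not overlap, and the fitted level was 1.6-fold lower in LP22 (log2 fold change −0.68, SE 0.1, edgeR FDR = 0.0157). Its short-day levels were 54.9 to 64.1 CPM in SP4 and 59.9 to 72 CPM in SP16, ranges that the LP22 animals overlapped. LP4 was above SP4 (log2 fold change 0.82, edgeR FDR = 0.000193), and LP22 against SP16 gave −0.02 (edgeR FDR = 0.943). The comparison with SP4 shares the LP4 animals whose high level picked the gene, so its outcome is partly fixed. LP4 thus stood highest for the third gene and for ENSOARG00000000618, although for the latter LP22 also lay above SP4. LP22 alone stood low for ENSOARG00000023160.

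ENSOARG00000007585 was the gene that rose. It measured 72.7, 81.2 and 81 CPM in LP4 and 126, 112, 122 and 124 CPM in LP22, again without overlap. The fitted level was 1.54-fold higher in LP22 (log2 fold change 0.63, SE 0.1, edgeR FDR = 0.0329), the smallest change among the 4. The SP16 animals, at 95.1 to 105 CPM, and the SP4 animals, at 83.7 to 110 CPM, lay between the LP groups. Neither LP4 against SP4 (log2 fold change −0.29, edgeR FDR = 0.184) nor LP22 against SP16 (0.27, FDR = 0.141) passed.

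The next gene in order of p among those higher in LP22, ENSOARG00000019578, did not pass (edgeR FDR = 0.0869). It measured 22.5, 28.1 and 28.1 CPM in LP4 and 49.4, 63.8, 43.7 and 43.1 CPM in LP22, a fitted ratio of 1.89 (log2 fold change 0.92, SE 0.17). All 4 LP22 animals were above all 11 other animals, whose highest value was 30.6 CPM. It passed in LP22 against SP16 (log2 fold change 0.87, edgeR FDR = 0.00289), a comparison that shares the LP22 animals. Of the 16 genes that came next by p, with FDR of 0.0869 to 0.159, 11 were lower and 5 higher in LP22, and in all 16 the groups did not overlap (7.37% of all genes tested), which the choice by p largely fixes. Of the 16, 2 were over 2-fold highest in LP4 animal 2, as were 113 of the 13446 genes tested.

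**Figure D2:**
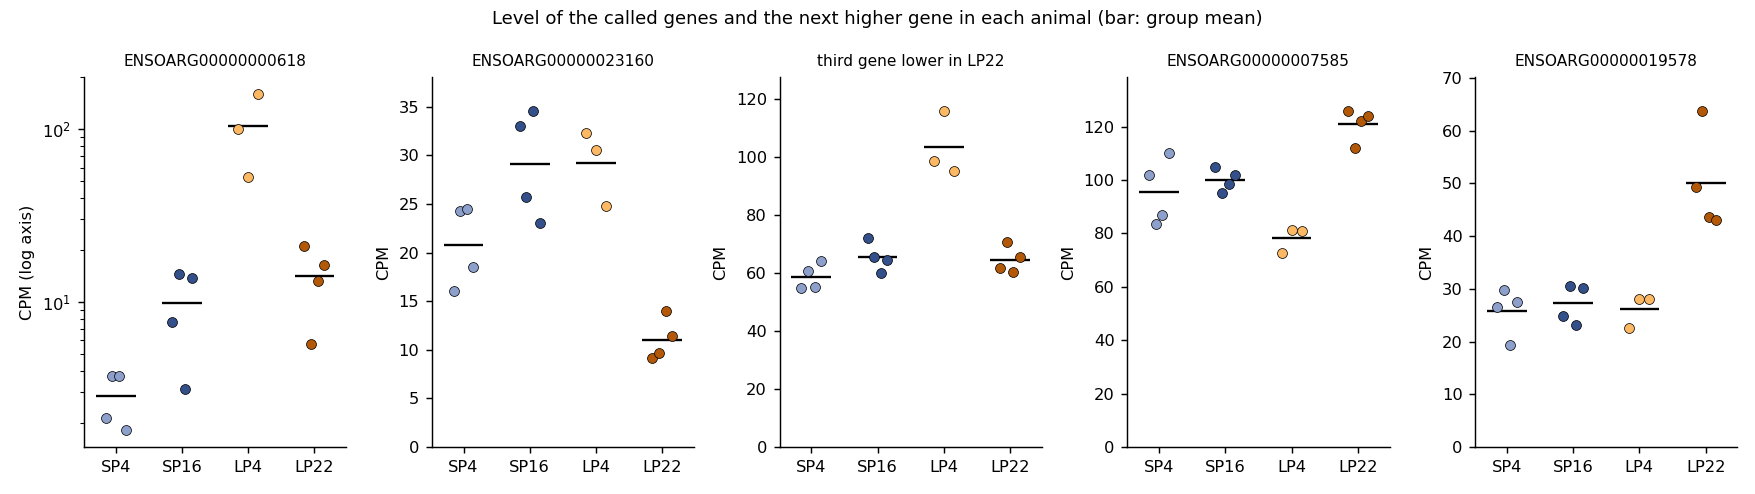
CPM of the 4 genes at FDR under 0.05 and of ENSOARG00000019578 in each of the 15 animals, by group (SP4, SP16, LP4, LP22), with 1 panel per gene, points for animals, a bar for the group mean and a log axis for ENSOARG00000000618. LP22 and LP4 points do not overlap in any panel, and ENSOARG00000000618 shows the widest spread within LP4, 52.8 to 160 CPM.

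These genes were also read in the libraries left out, without TMM scaling. On that scale ENSOARG00000000618 stood at 91 CPM in the left-out library of LP4 animal 2 and 95.7 CPM in LP4 animal 3, within the 33.2 to 169 CPM of the LP4 libraries used, where the short-day libraries ranged from 1.46 to 15.5 CPM. On unscaled levels a difference between libraries and one between animals cannot be told apart. The other genes did not keep to the LP4 range. In the same order, the third lower gene stood at 9.19 and 7.42 CPM, against 72.8 to 101 CPM in the LP4 libraries used, and ENSOARG00000019578 at 11 and 1.26 CPM, against 17.7 to 29.7 CPM. ENSOARG00000007585 stood at 117 and 118 CPM, above the 51.1 to 85.5 CPM of the LP4 libraries used and inside the 112 to 133 CPM of the LP22 libraries. ENSOARG00000023160 stood at 46.9 CPM, above its LP4 range of 19.2 to 32.6 CPM, and at 23.7 CPM, inside it. With the left-out libraries in the fit (all 16 animals), the third lower gene had a log2 fold change of −0.16 (edgeR FDR = 0.787) and ENSOARG00000007585 one of 0.16 (FDR = 0.651), so both lost their call, while ENSOARG00000000618 (−3.06) and ENSOARG00000023160 (−1.55) passed at edgeR FDR = 0.0333 each.

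In 991 genes, the 4 that passed included, the LP22 and LP4 animals did not overlap, 505 with LP22 above (3.76% of the genes tested) and 486 with LP22 below (3.61%). The median size of the log2 fold change among the 991 was 0.44. Of the 991, 62 were at least 2-fold higher and 34 at least 2-fold lower (9.69%, against 2.23% of all genes tested). With LP4 animal 2 left out the count was 2325 of the 13446 genes tested, with 4 animals against 2. Random order of the animals alone leaves some genes without overlap, and more of them with fewer animals. The counts were not set against that share, so neither they nor the rise is read as a result about these genes. The precision of a fold change depended on level: the median SE of the log2 fold change was 0.43 under 5 CPM, 0.27 from 5 to 20 CPM, 0.16 from 20 to 100 CPM and 0.11 over 100 CPM. The share of genes at an unadjusted p under 0.05 was 8.25%, 7.89%, 9.23% and 11.1% in the same order.

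Many genes at least 2-fold lower in LP22 were extreme in the LP4 animal 2 library. In 113 genes this animal was over 2-fold above all 14 others, and in 34 it was over 2-fold below them. No other animal was that far above the rest in more than 16 genes, whereas LP22 animal 2 was that far below them in 36. The median level of the 113 genes was 147 CPM in LP4 animal 2, 18 and 15.9 CPM in LP4 animals 1 and 4, and 14.2 to 19.2 CPM in the LP22 animals, so the medians of the other LP4 animals lay within the LP22 range. Of the 125 genes at least 2-fold lower in LP22, 75 (60%) belonged to these 113. Of the 113, 101 had an unadjusted p under 0.05 and 0 passed the edgeR test at FDR under 0.05. Choosing genes by a high level in an LP4 animal by itself favours a lower level in LP22. On unscaled CPM, 67 of the 113 were over 2-fold above the other animals in the repeat library of LP4 animal 2 and 0 in its other library. Of the 50 lowest log2 fold changes (−3.74 to −1.84), 48 had LP4 animal 2 over 2-fold above the other LP4 animals and 1 passed the test.

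Leaving out LP4 animal 2 left 2 genes past the threshold, 1 higher and 1 lower. The lower one was ENSOARG00000000618, at a log2 fold change of −3.18, and the higher one was not among the 4. ENSOARG00000023160 (log2 fold change −1.34), the third lower gene (−0.59) and ENSOARG00000007585 (0.65) moved little and had an edgeR FDR of 0.0607 each. Among the 13444 genes tested both ways, genes at least 2-fold lower went from 124 to 90, with 35 in both sets, and genes at least 2-fold higher from 175 to 203, with 144 in both. Leaving out LP4 animal 1 or 4 had the opposite effect on the count. It became 35 of 13740 genes tested (34 lower) and 36 of 13751 (35 lower). Of these calls, 24 and 27 were among the 113 genes over 2-fold highest in LP4 animal 2, out of 13446 tested with all animals. Leaving out LP22 animal 1 left 1 gene, ENSOARG00000000618 (log2 fold change −3.1, edgeR FDR = 0.015), and leaving out LP22 animal 2, 3 or 4 left 2 each, all lower.

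**Figure D3:**
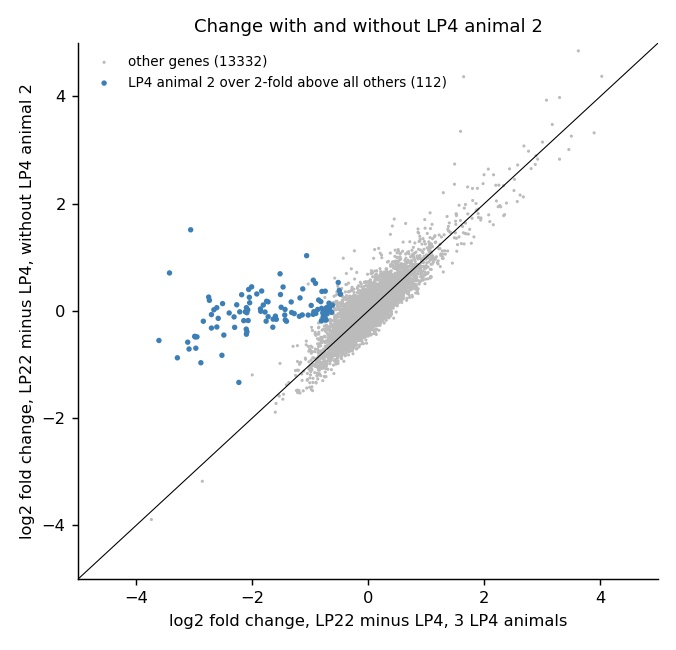
Log2 fold change LP22 minus LP4 with LP4 animal 2 left out (vertical axis) against that with all 7 libraries (horizontal axis), 1 point per gene, with 112 of the 113 genes over 2-fold highest in LP4 animal 2 marked (the other was not tested both ways); 5 genes lie outside the axes and the line marks equal values. The marked genes lie left of 0 with all 7 libraries and spread around 0 without that animal. Their choice by a high level in that animal largely fixes both.

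The highest folds differed widely among the LP22 animals. The 4 genes with the highest log2 fold changes, 8.94 to 9.46 (SE 2.17 to 2.29), were singled out after their values were seen and did not pass (edgeR FDR 0.203 to 0.206). Their LP4 counts were 0 to 5 reads per gene, so the fitted folds depend on the default prior count of the edgeR fit. The next log2 fold change down was 6.73. The 4 summed levels came to 2.93 to 4.08 CPM in LP4, to 202 to 357 CPM in LP22 animals 1, 3 and 4, and to 7500 CPM in LP22 animal 2. All LP22 animals were high and LP22 animal 2 was far above the others.

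A single short-day animal was also high for these genes. SP4 animal 1, whose libraries were summed, stood at 549 CPM, against 1.65 to 7.22 CPM in the other SP4 animals and 2.26 to 37.4 CPM in SP16. Its first library held 23.1 CPM of the 4 genes on the unscaled scale and its repeat library 738 CPM, so libraries of the same animal differed. The 4 genes kept similar shares of their sum in the LP22 animals and SP4 animal 1: 28.9% to 36.3% for the highest, 6.11% to 11% for the second, 43.6% to 50.4% for the third and 9.28% to 13.4% for the fourth. Whether they are copies that share reads cannot be read from the IDs.

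The call for these 4 genes depended on which libraries entered. None of the 4 passed with all animals, without LP22 animal 2 (edgeR FDR 0.381 to 0.398) or with only the LP libraries (0.446 to 0.486). With the first library alone for SP4 animal 1, 1 of 4 passed (edgeR FDR 0.0489 to 0.0872). With that and LP22 animal 2 left out, all 4 passed (edgeR FDR 0.000379 to 0.00056). The settings with that library alone were chosen after the values were seen, so they lend no support to a call.

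**Figure D4:**
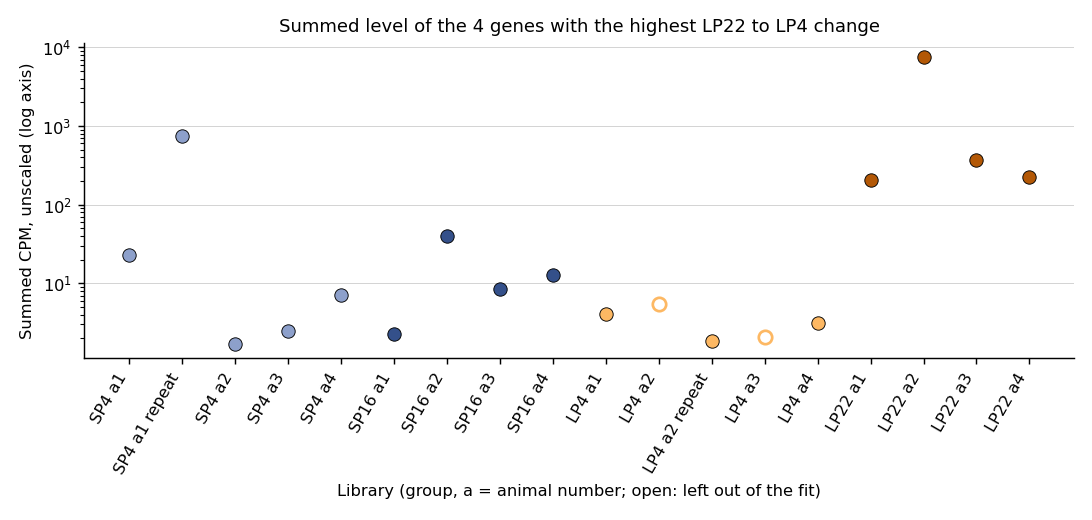
Summed CPM (log axis, without TMM scaling) of the 4 genes with the highest log2 fold change in each of the 18 libraries, with open points for the libraries left out. The LP22 libraries lie at 203 to 7530 CPM, the LP4 libraries at 1.85 to 5.51 CPM, and the SP4 animal 1 libraries stand at 23.1 and 738 CPM.

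Single animals also stood out among the high folds. In the 50 highest log2 fold changes (1.89 to 9.46), 14 had 1 LP22 animal over 2-fold above the rest of its group, 9 of them LP22 animal 2, and 0 of the 50 passed the test. Every LP22 animal lay above every LP4 animal in 17 of the 50, against 3.76% of all genes tested. Every LP22 animal lay below in 9 of the 50 lowest, against 3.61%. Both sets were chosen by their fold in the same contrast. The median of the mean levels was 4.33 CPM in the 50 highest and 29.6 CPM in the 50 lowest.

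SP16 against SP4, which shares no animal with the LP groups, had 1 gene at FDR under 0.05 (0.00744%), a higher one, with 0 lower, and 1444 at an unadjusted p under 0.05 (10.7%). The DESeq2 Wald test called 36, and the edgeR test called 42 without SP16 animal 3, so whether LP or SP had more calls depended on the setting. The late time points differ, 22 weeks on LP and 16 weeks on SP. Across the 13446 genes the LP and SP changes had a Pearson correlation of −0.0273 and a Spearman correlation of −0.0412, given as a description of genes that are not independent replicates. Leaving out LP4 animal 2 gave −0.127 and −0.164 over 13444 genes.

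The difference between the LP and SP changes was tested directly, as (LP22 − LP4) − (SP16 − SP4). It passed in 12 genes (0.0892%), with the LP change below the SP change in 9 (0.0669%) and above it in 3 (0.0223%), and 1407 genes (10.5%) had an unadjusted p under 0.05. In all 12 the changes had opposite signs, which the choice of genes by their difference favours, and which 51.5% of all genes tested showed. The LP change was the larger in 9, with a median size of 0.85 on the log2 scale against 0.74 for the SP change. All 3 genes that fell on LP were among the 12. The tested difference contains the LP change by which they were picked, so their presence there is partly fixed. Their differences were −4.64 (SE 0.69, edgeR FDR = 0.0173) for ENSOARG00000000618 and −1.89 (SE 0.27, FDR = 0.0173) for ENSOARG00000023160. The third gene stood at −0.84 (SE 0.14, edgeR FDR = 0.028). For ENSOARG00000007585 the difference, 0.56, did not pass (edgeR FDR = 0.142). Without LP4 animal 2 the count was 33, and all 12 were among them. The count also hung on the short-day animals: it was 0 by the same edgeR test without SP4 animal 1 (1221 at an unadjusted p under 0.05), 2 without SP4 animal 3, 1, 4 and 6 without SP16 animals 2, 3 and 4, and 40 by DESeq2.

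The genes that set LP4 apart from SP4 were followed to the late time points. LP4 differed from SP4 in 241 genes (1.79%), 164 higher (1.22%) and 77 lower (0.573%) in LP4, called from the contrast of the 4-week groups in the fit of 15 animals. The LP22 and SP16 animals entered that fit's filter, scaling and spread. Levels were taken relative to the SP16 mean, which by itself places the SP16 animals near 0. In the LP22 animals the median log2 level of the 164 genes, relative to the SP16 mean, was 0.59, 0.61, 0.38 and 0.46, against −0.05 to 0.03 in the SP16 animals. The same for the 77 genes was −0.33, −0.42, −0.23 and −0.19, against −0.03 to 0.1. Every LP22 animal thus lay on the LP4 side of every SP16 animal for both lists, although 21 and 15 of the genes lay on the opposite side.

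The size was smaller than between the 4-week groups. The median log2 fold change of the 164 genes was 0.88 in LP4 against SP4 and 0.52 in LP22 against SP16, where all genes had a median of 0.000418. For the 77 genes it was −0.89 and −0.29. The first value of each pair was fixed by choosing the list, so the drop is not a measured loss. LP22 against SP16 had 434 genes at FDR under 0.05 (3.23%), 233 higher (1.73%) and 201 lower (1.49%). Of the 164 genes, 77 (47%) were called in the same direction, and of the 77 genes, 18 (23.4%). Every LP22 animal lay above every SP16 animal in 88 of the 164 (53.7%, against 5.35% of all genes tested) and below in 25 of the 77 (32.5%, against 5.5%). With the list chosen without LP4 animal 2 the mean of the LP22 medians was 0.46 over 161 genes and −0.23 over 65 genes. With the list called from LP4 and SP4 animals fitted alone, it was 0.79 over 65 higher genes and −0.52 over 31 lower genes.

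**Figure D5:**
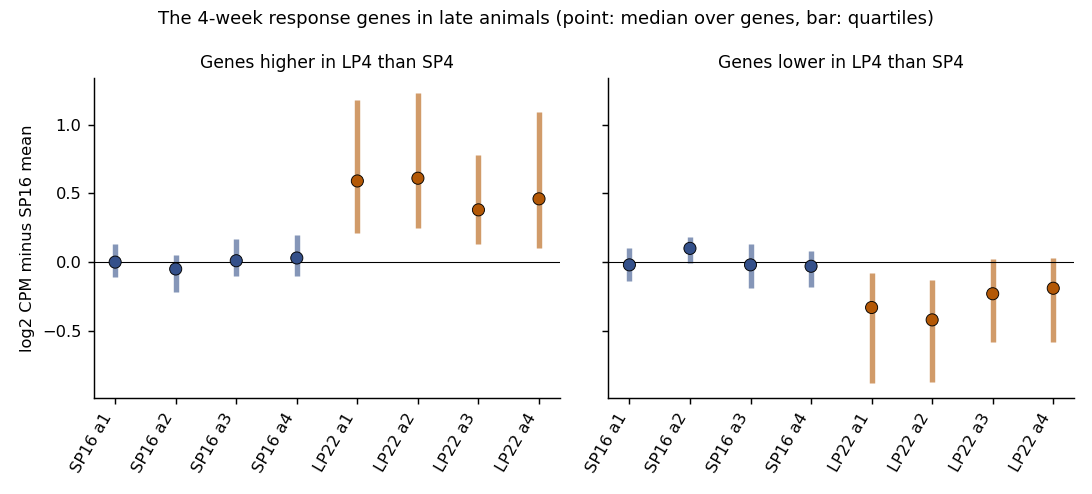
Median log2 CPM relative to the SP16 mean, in each SP16 and LP22 animal, of the 164 genes higher and the 77 genes lower in LP4 than in SP4, with bars from the lower to the upper quartile over genes. The LP22 animals lie at 0.38 to 0.61 and at −0.42 to −0.19. The SP16 animals lie near 0, where the use of their own mean places them.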

How the data were processed

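Per the labels, Illumina cDNA fragment libraries were made from total RNA of the PT. The deposited values are raw HTSeq counts of reads per gene, which the authors made after alignment with Bowtie and processing with SAMtools. The build was Oar_v3.1 per the submitters' processing notes, and tool versions and the strand setting are not given in the sources used here. The 5 HTSeq summary lines name no gene and were kept out of library sizes and tests. Reads in no feature made up 78.6% to 84.5% of aligned reads in the 7 LP libraries used. The files do not pair IDs with names, so checks of gene length or GC content are void.

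Counts were fitted for 15 animals in 4 groups (the libraries of SP4 animal 1 were summed) with filterByExpr (minimum count 10, minimum total 15), TMM scaling and the quasi-likelihood test of edgeR 4.0.16 in R 4.3.3, 2-sided. Log2 levels of single animals use a prior count of 2. Fold changes use the default prior count of the edgeR fit, and standard errors were derived from the F statistic. The labels number the samples of a group, and each number was taken as 1 animal. Nothing else states how the samples were separated, so p-values measure only the spread between these samples. The members, gene lists and tests were chosen with earlier results of these data known. IDs are given for the 2 genes with the lowest and the 2 with the highest log2 fold change at FDR under 0.05. Where fewer than 2 passed in a direction, the gene of lowest p was added as not past it. Alternatives were DESeq2 1.42.0, other scalings and filters, a robust dispersion fit, other sets of animals, the animal number as a block, the exact test and leaving out each animal. Settings without LP4 animal 2 for the overlap and list results, those with 1 library of SP4 animal 1, the list from LP4 and SP4 alone, and SP leave-outs for the LP count and the difference were chosen after seeing the data. The script was tested on simulated data. Plots used Python 3.11.15 and matplotlib 3.10.9.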

Additional observations from a re-analysis of the deposited data

Results flagged for a closer look

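In 12 genes the change with time on LP differed from that on SP by the test of the difference itself, a count that was 0 by the same edgeR test without SP4 animal 1 (1221 at an unadjusted p under 0.05) and 40 by DESeq2. Among them were ENSOARG00000000618 (−4.64 on the log2 scale), ENSOARG00000023160 (−1.89) and the third gene lower in LP22 (−0.84). These genes were picked by their LP change, which is part of the tested difference.

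ENSOARG00000000618 was also high in libraries outside the comparison. It stood at 91 CPM (unscaled) in the left-out library of LP4 animal 2 and at 95.7 CPM in LP4 animal 3, above the 1.46 to 15.5 CPM of the short-day libraries. A sample far from the rest was looked for in 24 sets of 4 animals in LP22, SP4 and SP16. The sets were levels of the genes given by ID or as the third lower gene, and measures of the first libraries. Of these sets 0 had one, where chance gives about 1 in 20 (1.2 groups). LP4, with its outlying animal 2 library, was not examined. Choosing genes by p in LP22 against LP4 favours close values within LP22, so the count of 0 is partly fixed.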

How the results depend on the processing

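The count of 4 genes for LP22 against LP4 was 14 by DESeq2, 32 with no filter on low counts, 63 by the edgeR exact test, 0 with only LP22 and LP4 fitted (edgeR, 883 at an unadjusted p under 0.05), 2 with all 16 animals and 2 at a log2 fold change of at least 1. It ran from 1 to 36 with 1 of the 15 animals left out, and from 3 to 5 over the SP animals, whose leave-outs were added after seeing the data for this count and the difference. The count of 1 for SP16 against SP4 was 36 by DESeq2, 31 with no filter, 0 with all 16 animals (edgeR, with 292 at an unadjusted p under 0.05) and 0 with the first library only of SP4 animal 1 (edgeR, 1238 at that p), a setting chosen after seeing the data. It ran from 1 to 42 with 1 animal left out, with 42 without SP16 animal 3 and 2 without SP16 animal 1 or 4. The count of 12 for the difference was 40, 38, 1 and 7 under DESeq2, no filter, all 16 animals and that first library, and 0 (without SP4 animal 1; edgeR, 1221 at that p) to 33 (without LP4 animal 2) with 1 animal left out, with 1 without LP22 animal 1 and 4 and 6 without LP4 animals 1 and 4. With the LP4 against SP4 list called from those groups alone, also added later, its mean level in LP22 went from 0.51 to 0.79 (higher) and from −0.29 to −0.52 (lower). The 991 genes without overlap became 2325 of the 13446 tested without LP4 animal 2, also chosen after seeing the data. Fewer animals alone raise that count. The causes were not tested. Same-numbered LP4 and LP22 animals had correlated deviations of 0.0339, 0.123 and 0.0483, against −0.133 to 0.132 for animals of unlike number. Of 3 LP4 animals, 2 correlated best with their own number, and 3 pairs cannot decide whether same-numbered samples share more than a number. The replicate block gave 3 genes, 2 of them among the 4, 1 for SP16 against SP4 and 7 for the difference. No named gene reversed over 18 alternatives, in which LP animals but no SP animals were left out. ENSOARG00000000618 kept its call in 16, ENSOARG00000023160 in 13, the third lower gene in 10 and ENSOARG00000007585 in 8, and ENSOARG00000019578 passed in 4. The median SE of a log2 fold change was 0.43 for genes under 5 CPM and 0.11 over 100 CPM.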
